A study of Mus musculus with 15 samples.

Results

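Myc and the genes of ribosome biogenesis, 37 genes in all, were followed across sorted mouse plasma cells. The genes were taken by symbol from a list, out of the 22339 genes of the deposited table. The list was chosen with earlier results of these data known. All 37 were in the table, and all 37 passed the filter on low values that left 11246 genes to test. Plasma cells are B lineage cells that secrete antibody. They were taken directly from untreated, unimmunised male C57Bl6/N mice aged 8 to 12 weeks, and every group was double sorted for high CD138 and for absence of Ly6g and CD11c. Spleen cells were further divided by B220, a form of CD45 that B cells carry, and by whether they took up 2NBDG, a glucose analogue that fluoresces. The 4 spleen groups were the B220+2NBDG- and B220-2NBDG- cells, low in uptake, and the B220+2NBDG+ and B220-2NBDG+ cells, high in it. Bone marrow plasma cells (BMPC), B220- and 2NBDG+, formed the other group. Each group had 3 biological replicates of about 30000 cells. Whether a replicate was 1 mouse or a pool of mice is not given in the sources used here.

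Ribosomes are assembled in the nucleolus. RNA polymerase I transcribes the ribosomal RNA precursor, small nucleolar ribonucleoproteins modify it, and the small subunit processome and a series of large subunit assembly factors cut, fold and load it with ribosomal proteins. Myc is a transcription factor that pairs with Max, binds the E-box and drives many of these genes in growing cells. In the B lineage Myc is high in cycling cells, and Prdm1, the repressor that drives plasma cell differentiation, shuts it down.

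The E-box that Myc and Max recognise, CACGTG (the same letters on both strands), was looked for in the RefSeq promoters of the members, from 250 bases before to 50 bases after each start site on GRCm38.p6. Of the 37 members, 31 were in the promoter table; Myc, Npm1, Fbl, Rrs1, Rrp12 and Bop1 were not. The motif stood in promoters of 7 of these 31 genes (22.6%), against 8.09% of the 27025 genes in the table and 11.8% of the 8670 of them that were tested. The 7 sites are printed to show where the motif lies, with the E-box in capitals. Each runs 5′ to 3′ on the strand of its gene, with at most 12 flanking bases on each side, fewer where the promoter window ended.
Mybbp1a, chr11:72441355-72441376, plus strand: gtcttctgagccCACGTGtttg
Nop2, chr6:125131811-125131840, plus strand: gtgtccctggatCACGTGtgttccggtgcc
Pes1, chr11:3963965-3963994, plus strand: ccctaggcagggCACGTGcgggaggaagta
Tsr1, chr11:74898092-74898121, plus strand: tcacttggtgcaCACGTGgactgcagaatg
Utp20, chr10:88826765-88826789, minus strand: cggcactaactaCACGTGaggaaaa
Utp4, chr8:106893643-106893672, plus strand: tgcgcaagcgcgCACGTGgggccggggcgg
Wdr43, chr17:71616220-71616249, plus strand: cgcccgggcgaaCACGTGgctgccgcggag
The Nop2 site began 60 bases before the RefSeq start, and the other 6 sites lay in the bases after it. Of these 7 genes, Wdr43 alone differed among the 5 groups in the test described below.

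The 100 bases before the gene are printed for Nhp2, Nop58 and Ddx21, the members with the largest variation among the groups relative to their replicates that had a single promoter in the table. The window ends before the first annotated base of the gene in RefSeq and in GENCODE M21. Capitals mark GGAAGT or its reverse complement ACTTCC, a form of the core that factors of the ETS family recognise, which was looked for after these sequences had been read.
Nhp2, chr11:51619635-51619734, plus strand: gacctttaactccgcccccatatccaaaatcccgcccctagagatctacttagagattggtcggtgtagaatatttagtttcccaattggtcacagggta
Nop58, chr1:59684871-59684970, plus strand: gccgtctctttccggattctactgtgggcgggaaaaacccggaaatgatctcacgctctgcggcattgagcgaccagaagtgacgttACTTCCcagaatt
Ddx21, chr10:62602299-62602398, minus strand: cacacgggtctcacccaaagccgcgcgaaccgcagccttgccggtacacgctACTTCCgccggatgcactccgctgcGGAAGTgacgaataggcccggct
The printed bases held 2 copies in Ddx21, 1 in Nop58 and none in Nhp2. Over the 250 bases before the RefSeq start, 14 of the 31 members (45.2%) had the motif in a promoter. The share was 22.2% of all genes in the table and 28.7% of those tested. A match describes letters in a window and says nothing of which factor was bound.

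The libraries held 17269591 to 24827383 estimated reads, of which 4399653 to 9911571 lay outside the immunoglobulin genes. Immunoglobulin transcripts took 91.1% to 96.6% of the deposited abundance in TPM, a unit that scales each library to the same total after dividing by transcript length, so they were set aside and the other genes brought to a total of 1000000 in each library. All levels below are TPM on that scale. The plasma cell label held in every library: Xbp1 lay between 299 and 639 TPM, Irf4 between 107 and 332, Prdm1 between 16.2 and 63.0 and Sdc1, which encodes CD138, between 36.1 and 169. Replicate 3 of B220+2NBDG- stood apart, with a mean Pearson r across genes of 0.942 to its replicates against 0.958 to 0.973 for the other libraries. In it 18 of 37 members lay over 0.5 log2 units from the mean of the other 2 replicates, 8 above and 10 below, as did 43.4% of all genes tested. In BMPC replicate 1, 15 members did, 13 of them below, against 28.6% of all genes. Several results that move without either library are given with and without it.

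Summed over the 37 members, levels were highest in B220+2NBDG-, at 2183, 2535 and 2136 TPM in replicates 1, 2 and 3. They were 1717, 1883 and 1902 TPM in B220-2NBDG- cells, 1890, 2083 and 2031 in B220+2NBDG+, 1636, 1670 and 1696 in B220-2NBDG+ and 1436, 1542 and 1680 in BMPC. All 3 B220+2NBDG- libraries lay above the other 12, and BMPC overlapped B220-2NBDG+. Npm1 and Nop56 together made up much of each sum. Taken gene by gene, the highest group mean was in B220+2NBDG- for 23 of 37 members, against 39.3% of all genes tested, and no member had its highest mean in BMPC (7.86% of all genes). The lowest mean was in BMPC for 23 members, against 55.4% of all genes, in B220-2NBDG+ for 9 (15.4%), in B220-2NBDG- for 4 (6.97%) and in B220+2NBDG+ for 1 (4.41%). In these bulk libraries, fewer cells expressing a gene and less RNA per cell cannot be told apart.

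**Figure D1:**
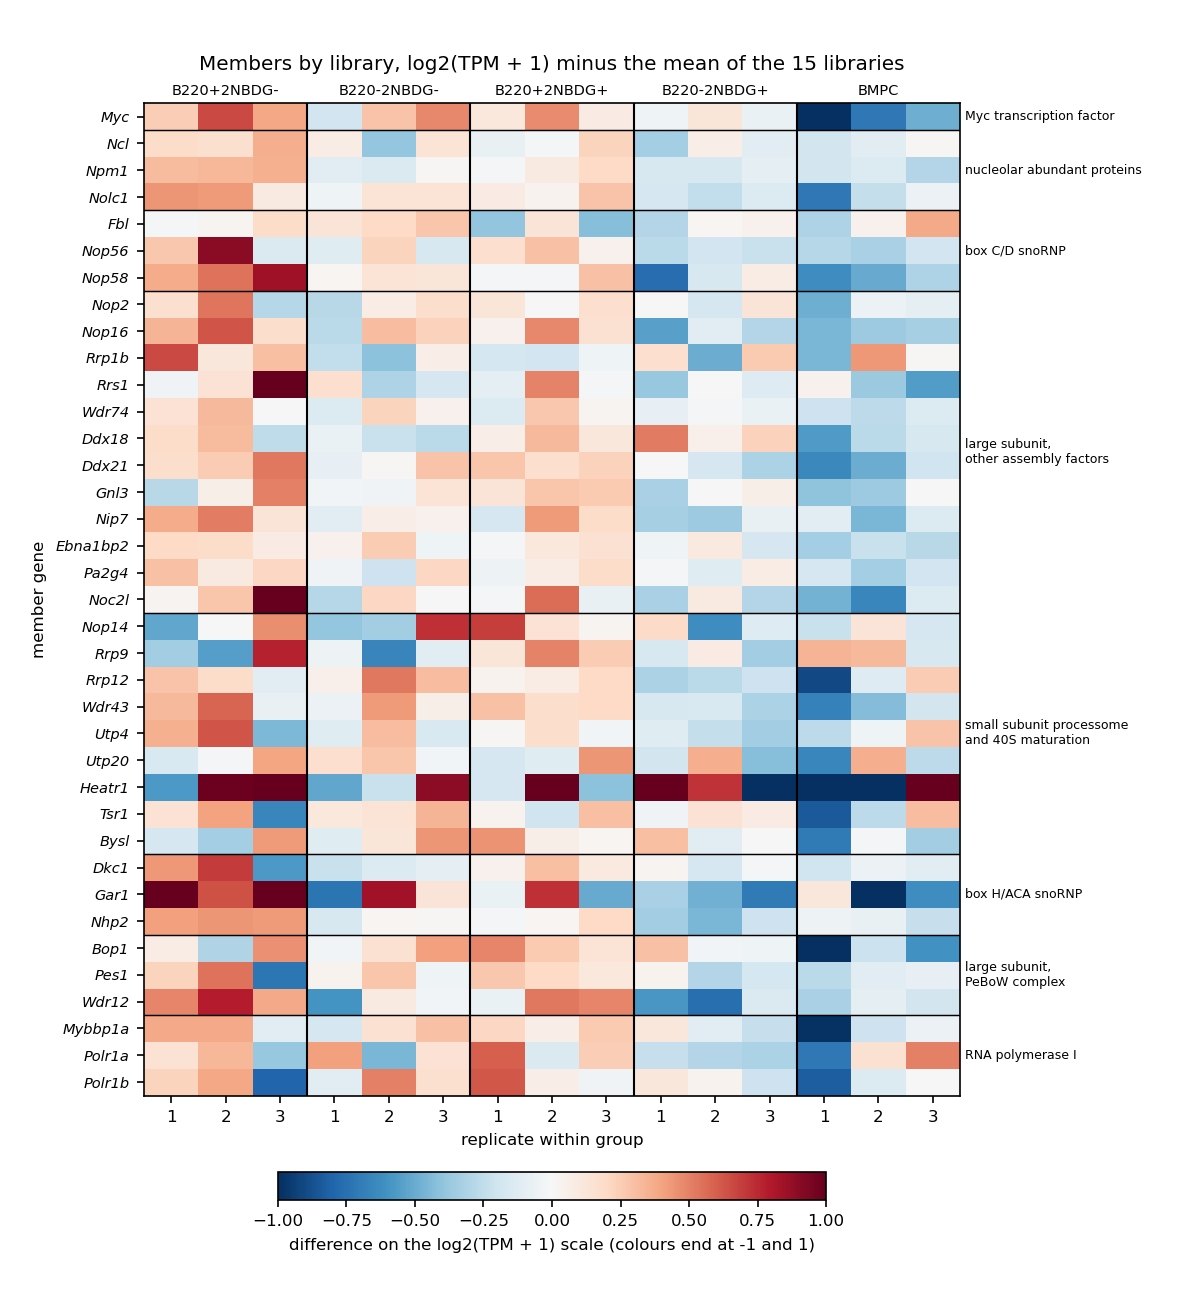
Each cell is 1 member gene (rows, grouped by role) in 1 of the 15 libraries (columns, 3 replicates in each of 5 groups), coloured by log2(TPM + 1) minus that gene's mean over the 15 libraries; colours end at -1 and 1. Red prevails in B220+2NBDG- replicates 1 and 2 and blue in BMPC, most of all in BMPC replicate 1; Heatr1 swings from library to library within every group.

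Myc (chromosome 15, 61985391 to 61990374, plus strand on GRCm38) was lowest in bone marrow. Its level was 20.3, 27.4 and 22.5 TPM in B220+2NBDG- cells, 14.7, 20.9 and 24.0 in B220-2NBDG-, 18.3, 23.9 and 18.0 in B220+2NBDG+, 16.4, 18.5 and 16.1 in B220-2NBDG+ and 6.13, 9.95 and 11.8 in BMPC. All 3 BMPC libraries lay below all 12 spleen libraries, while the 4 spleen groups overlapped except that B220-2NBDG+ lay wholly below B220+2NBDG-. The group means ran 23.4 ± 3.63, 20.0 ± 3.33, 19.9 ± 4.75, 17.0 ± 1.29 and 9.30 ± 2.90 TPM (SD, n = 3 each) for B220+2NBDG-, B220+2NBDG+, B220-2NBDG-, B220-2NBDG+ and BMPC. No pair of neighbours in this order differed past the threshold where it was tested, the last pair included. The 5 groups differed by limma's F test (adjusted p = 0.00948). Estimated reads on Myc numbered 84 to 538 per library.

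Whether Myc passed the test in bone marrow depended on the comparison. Against B220-2NBDG+, the spleen group of the same B220 and 2NBDG phenotype, the log2 fold change was -0.85 ± 0.23 (SE), with an adjusted p of 0.0808, and did not pass. It passed under 3 of 26 alternatives (adjusted p from 0.0178 to 0.0495), among them the fit without BMPC replicate 3 (0.0495). Against the mean of the 4 spleen groups, a contrast added after the levels of Myc had been seen, Myc fell by 1.055 ± 0.18 (SE) on the log2 scale (adjusted p = 0.00216). That call held under each alternative run, with adjusted p from 0.000315 to 0.0184. Within spleen Myc did not pass in any comparison: the log2 fold change was -0.20 ± 0.16 for 2NBDG, -0.23 ± 0.16 for B220 and -0.43 ± 0.23 for B220-2NBDG+ against B220+2NBDG- (adjusted p = 0.538, 0.425 and 0.239). Myc is the sum of 7 transcripts in the table, all annotated as protein coding.

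Npm1, an abundant nucleolar chaperone, was highest in B220+2NBDG-. It was at 541, 545 and 556 TPM in B220+2NBDG- cells, 400, 393 and 437 in B220-2NBDG-, 430, 462 and 498 in B220+2NBDG+, 389, 387 and 406 in B220-2NBDG+ and 382, 395 and 353 in BMPC. The B220+2NBDG- libraries stood above all others, and the last 2 groups overlapped. Npm1 fell by 0.32 ± 0.06 (SE, log2) in B220- against B220+ spleen cells averaged over 2NBDG (adjusted p = 0.00576), and by 0.47 ± 0.09 in B220-2NBDG+ against B220+2NBDG- (adjusted p = 0.00291). Both calls ended when libraries were scaled by the median of gene ratios (adjusted p = 0.214 and 0.138). Nucleolin (Ncl), which binds the rRNA precursor, ranged from 49.1 to 83.6 TPM with no call in any comparison. Nolc1, a scaffold for small nucleolar ribonucleoproteins, had group means from 46.2 ± 6.23 TPM in B220+2NBDG- to 29.3 ± 6.74 in BMPC (SD, n = 3 each), with adjusted p = 0.0593 among the 5 groups. It was called lower in BMPC against the 4 spleen groups. That call ended in 12 of 25 alternatives, the fit without BMPC replicate 1 among them.

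Of the core proteins of box C/D particles, which guide methylation of rRNA, Nop58 alone passed a test. Nop58 was at 179, 201 and 250 TPM in B220+2NBDG- cells, 140, 152 and 150 in B220-2NBDG-, 136, 136 and 169 in B220+2NBDG+, 81.2, 123 and 145 in B220-2NBDG+ and 89.3, 96.9 and 112 in BMPC. Its B220+2NBDG- libraries were above all others, and Nop58 fell by 0.87 ± 0.19 (SE, log2) from there to B220-2NBDG+ (adjusted p = 0.00819). That call ended when only these 2 groups entered the fit (adjusted p = 0.0784) and held under the other alternatives. Transcripts annotated as protein coding supplied 49.8% of the Nop58 sum. Nop56, its partner in the particle, had group means from 402 TPM in B220+2NBDG- to 252 in BMPC, but its B220+2NBDG- replicates spread from 274 to 568 and its log2 fold change of -0.57 ± 0.20 for the same comparison did not pass (adjusted p = 0.0703). Fibrillarin (Fbl), the methyltransferase of the particle, ranged from 27.6 to 48.8 TPM with its highest mean in B220-2NBDG-, and its adjusted p among the 5 groups was 0.398. A transcript of 297 nt supplied 63.8% of the Fbl sum.

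Among the box H/ACA proteins, which guide pseudouridylation and also sit in telomerase, Nhp2 varied little within groups. It was at 58.5, 59.7 and 59.1 TPM in B220+2NBDG- cells, 39.1, 44.4 and 44.1 in B220-2NBDG-, 43.4, 44.2 and 50.4 in B220+2NBDG+, 34.2, 31.6 and 37.7 in B220-2NBDG+ and 42.2, 41.5 and 37.1 in BMPC. B220+2NBDG- stood clear of every other group, and B220-2NBDG+ was lowest, overlapping BMPC at its upper end. Nhp2 fell by 0.76 ± 0.12 (SE, log2) between the outer spleen groups (adjusted p = 0.000771), a call kept under all alternatives run. It was the 1 member called for 2NBDG averaged over B220, falling by 0.33 ± 0.08 (adjusted p = 0.0333), a call that 9 of 26 alternatives ended, 8 of them by leaving out 1 library and the other by median-of-ratios scaling. In B220- against B220+ cells it fell by 0.44 ± 0.08 (adjusted p = 0.00546, and 0.0778 with median-of-ratios scaling). Its partners gave less. Dkc1, the pseudouridine synthase, was at 84.0, 101 and 41.3 TPM in B220+2NBDG- and at 52.9 to 76.4 in the other libraries, with no call in any comparison. Transcripts annotated as protein coding supplied 33.1% of the Dkc1 sum. Gar1 ranged from 2.91 to 5.04 TPM in B220+2NBDG- cells, against 0.544 to 1.01 in B220-2NBDG+, but on 0 to 18 estimated reads per library; its fall of 1.48 ± 0.43 (adjusted p = 0.0325) was lost in 8 of 24 alternatives.

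The PeBoW complex, which Pes1, Bop1 and Wdr12 form to process the large subunit rRNA, had members called in different comparisons. Wdr12 was at 28.1, 34.9 and 26.1 TPM in B220+2NBDG- cells, 12.8, 21.1 and 19.4 in B220-2NBDG-, 18.9, 29.0 and 28.1 in B220+2NBDG+, 12.9, 11.3 and 17.8 in B220-2NBDG+ and 15.6, 18.5 and 17.3 in BMPC. The B220- spleen groups were low at either 2NBDG state. Wdr12 fell by 0.77 ± 0.16 (SE, log2) in B220- against B220+ cells (adjusted p = 0.00913, and 0.0558 on estimated reads in place of TPM) and by 1.04 ± 0.23 in B220-2NBDG+ against B220+2NBDG- (adjusted p = 0.00734). The last call held under each alternative run. Bop1 instead was low in marrow, at 7.33, 13.9 and 10.3 TPM against 13.0 to 23.2 in the spleen libraries, with a log2 fold change of -0.005 ± 0.235 between the outer spleen groups. It fell by 0.78 ± 0.19 in BMPC against the 4 spleen groups (adjusted p = 0.0125), a call that ended without BMPC replicate 1 or with median-of-ratios scaling. Pes1 was highest in replicate 2 of B220+2NBDG-, at 52.1 TPM, and lowest in replicate 3 of that group, and passed no test.

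**Figure D2:**
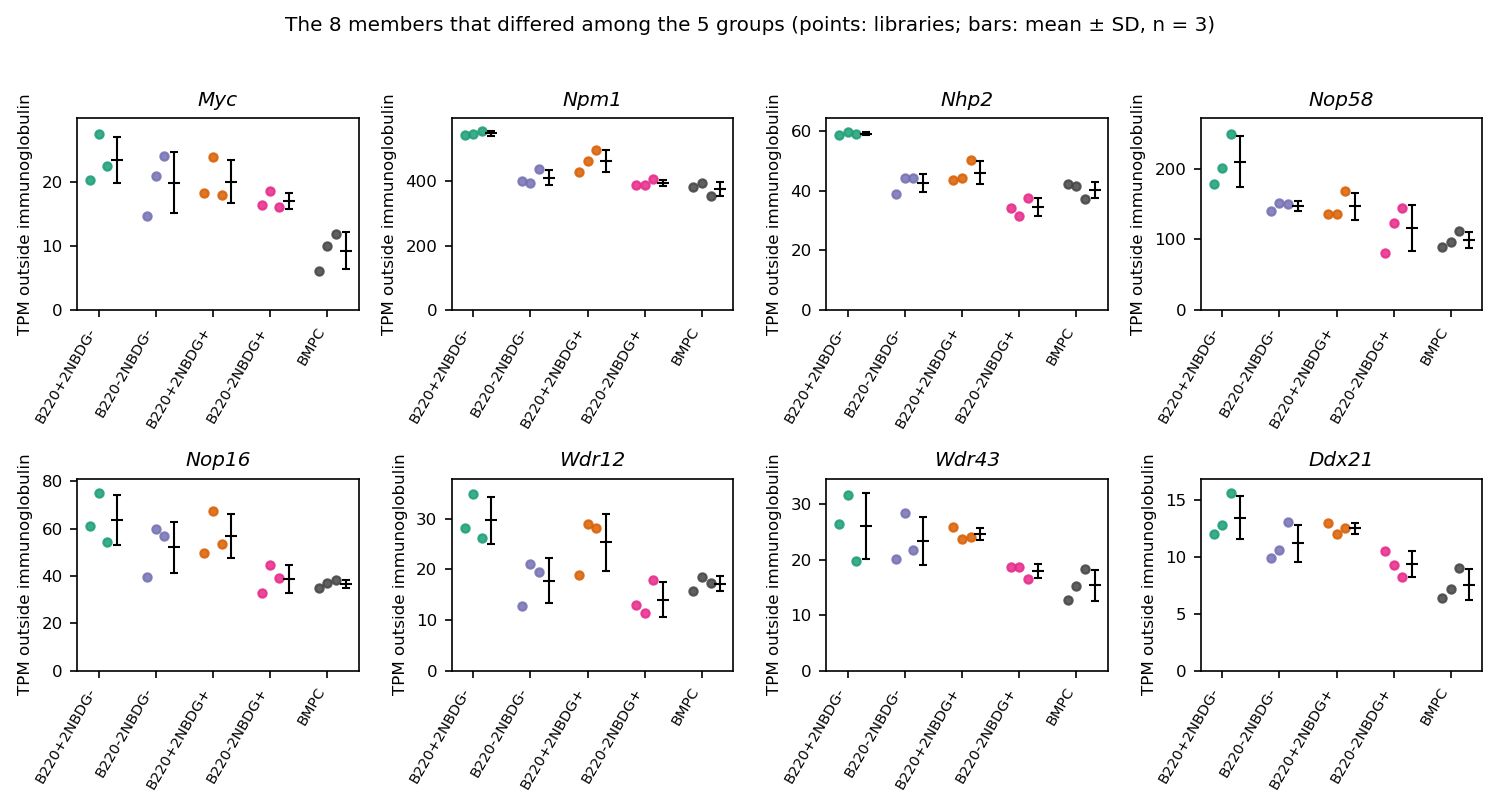
TPM outside the immunoglobulin genes (vertical axes, from 0) in each library (points) of the 5 groups, with mean ± SD (bars, n = 3), for the 8 members that differed among the groups. All 8 have their highest mean in B220+2NBDG-. Myc lies at 6.13 to 11.8 TPM in BMPC, below every spleen library, whereas the other members shown overlap between BMPC and B220-2NBDG+.

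Of the other large subunit factors, Nop16 and Ddx21 differed among the 5 groups. Of 25 alternatives, 6 ended that call for Nop16 and 3 for Ddx21, the fit without BMPC replicate 1 among them for both. Nop16 was at 61.2, 75.1 and 54.3 TPM in B220+2NBDG- cells, 39.7, 59.7 and 56.7 in B220-2NBDG-, 49.7, 67.3 and 53.5 in B220+2NBDG+, 32.6, 44.5 and 39.2 in B220-2NBDG+ and 34.8, 37.1 and 38.1 in BMPC. All libraries of the last 2 groups lay at 44.5 TPM or below. Nop16 had a fall of 0.70 ± 0.19 (SE, log2) between the outer spleen groups (adjusted p = 0.0224), a call that 6 of 26 alternatives ended. Its leading transcript, with 58.3% of the sum, is annotated as a target of nonsense-mediated decay. Ddx21, an RNA helicase that links RNA polymerase I transcription to rRNA processing, was at 12.0, 12.8 and 15.6 TPM in B220+2NBDG- cells, 9.89, 10.6 and 13.0 in B220-2NBDG-, 13.0, 12.0 and 12.5 in B220+2NBDG+, 10.5, 9.26 and 8.27 in B220-2NBDG+ and 6.39, 7.18 and 9.06 in BMPC. Among spleen groups it passed no test, and it fell by 0.56 ± 0.13 in BMPC against the 4 spleen groups (adjusted p = 0.0124), a call that ended with median-of-ratios scaling and without either BMPC replicate 1 or replicate 2. Nip7, which acts in 60S maturation, fell by 0.60 ± 0.17 between the outer spleen groups (adjusted p = 0.0319), from 48.3, 53.3 and 40.6 to 29.1, 28.5 and 35.1 TPM, and 6 of 26 alternatives ended the call. Ebna1bp2 lay at 64.1, 69.3 and 66.7 TPM in BMPC, below all 12 spleen libraries (72.2 to 97.1), and fell by 0.35 ± 0.09 against them (adjusted p = 0.0192), a call that 4 of 25 alternatives ended. Wdr74 had the same order, 41.4 to 45.1 against 45.1 to 62.4 TPM, and did not pass (adjusted p = 0.111).

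The remaining large subunit members passed no test. The GTPase nucleostemin (Gnl3) ranged from 69.3 to 131 TPM, Pa2g4 from 58.7 to 91.6, Nop2, an rRNA methyltransferase, from 15.4 to 32.3, and Ddx18 from 18.7 to 40.6. Ddx18 ran against most members within spleen, with its highest mean in B220-2NBDG+ (34.2 TPM) and a log2 fold change of 0.18 ± 0.18 against B220+2NBDG-. Noc2l (3.04 to 12.4 TPM) and Rrs1 (0.289 to 3.36 TPM, on 3 to 60 estimated reads) both had their maximum in B220+2NBDG- replicate 3. Rrp1b ranged from 8.49 to 20.2 TPM, and transcripts annotated as protein coding supplied 36.5% of its sum.

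In the small subunit processome, Wdr43 was the 1 member called, at 26.5, 31.7 and 19.8 TPM in B220+2NBDG- cells, 20.1, 28.3 and 21.8 in B220-2NBDG-, 25.8, 23.8 and 24.1 in B220+2NBDG+, 18.6, 18.7 and 16.6 in B220-2NBDG+ and 12.7, 15.2 and 18.3 in BMPC. No library of the last 2 groups exceeded 18.7 TPM. Its adjusted p among the 5 groups was 0.047, lost in 17 of 25 alternatives. Against the 4 spleen groups it fell by 0.54 ± 0.15 in BMPC (adjusted p = 0.0238), and the same 3 alternatives as for Ddx21 ended that call. Utp4, Utp20, Rrp9, Rrp12, Nop14, Tsr1 and Bysl passed no test, and their log2 fold changes between the outer spleen groups ran from -0.41 ± 0.24 (Utp4) to 0.10 ± 0.28 (Tsr1). Heatr1, which is also needed for RNA polymerase I transcription, swung from 1.98 to 76.1 TPM, both within BMPC. A transcript of 193 nt supplied 80.0% of its sum. With transcripts under 500 nt left out, Heatr1 ranged from 3.13 to 18.1 TPM. Its mean was then highest in B220+2NBDG- (13.2 TPM) and lowest in BMPC (4.63). With all transcripts the highest mean was in B220-2NBDG+ (32.1 TPM).

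For RNA polymerase I itself, neither catalytic subunit passed a test. Polr1a ranged from 8.65 to 23.0 TPM and Polr1b from 3.25 to 10.6, with log2 fold changes of -0.31 ± 0.31 and 0.05 ± 0.32 between the outer spleen groups. Transcripts annotated as protein coding supplied only 4.69% of the Polr1a sum. Its leading transcript, with 40.6%, is annotated as a target of nonsense-mediated decay. Mybbp1a, a nucleolar Myb-binding protein, was at 8.20, 14.8 and 16.5 TPM in BMPC and 14.6 to 22.8 in spleen, with a log2 fold change of -0.52 ± 0.18 in BMPC against spleen (adjusted p = 0.0602).

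Across the members, the tests gave few calls, and every call with a direction was a fall. Among the 5 groups, 8 of 37 members differed (Myc, Npm1, Nhp2, Nop58, Nop16, Wdr12, Wdr43 and Ddx21), against 19.1% of all genes tested. The share is near that background. With median-of-ratios scaling Myc alone remained, and without B220+2NBDG- replicate 3 the count was 14, against 25% of all genes; without replicate 1 of B220+2NBDG- or of B220-2NBDG+ it was 5. Between B220-2NBDG+ and B220+2NBDG-, the spleen groups at the 2 ends of the sort, 7 members fell (Gar1, Nhp2, Nip7, Nop16, Nop58, Npm1 and Wdr12) and none rose; 10.7% of all genes fell and 4.91% rose. Cell cycle genes, summed, went from 1397 to 1899 TPM in B220+2NBDG- down to 239 to 284 in B220-2NBDG+, and their part in these results was not tested. The median log2 fold change was -0.36 over members and -0.13 over all genes, and 33 of 37 members were below 0 against 60.8% of all genes. Median-of-ratios scaling moved the median of all genes to -0.01 and that of members to -0.22 and left Nhp2, Nop58 and Wdr12 called. It also moved the split of all calls from 552 higher and 1198 lower to 842 higher and 834 lower. Libraries of the 2 groups did not overlap, B220-2NBDG+ being lower, for 16 of 37 members against 21.2% of all genes. Without B220+2NBDG- replicate 3, 12 members fell (19.4% of all genes were called), with Dkc1, Nolc1, Nop56, Pes1, Utp4 and Wdr43 added and Gar1 lost. Without replicate 1 of either group the same 4 members fell, Nhp2, Nop58, Npm1 and Wdr12.

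Split by marker, the changes were smaller. In B220- against B220+ cells averaged over 2NBDG, 3 members fell (Npm1, Nhp2 and Wdr12), against 5.85% of all genes. Without B220+2NBDG- replicate 3, 7 members fell, in a fit to which the 5.85% does not apply. With the replicate number as a block, 5 were called, Nop16 and Nop58 being added, against 10.1% of all genes called in either direction in that fit and 8.65% without the block. The median was -0.23 over members and -0.09 over all genes (-0.13 and -0.00 with median-of-ratios scaling, under which Wdr12 alone was called). That scaling moved the calls of all genes from 315 higher and 658 lower to 547 higher and 457 lower. Within 2NBDG- cells 2 members fell (Npm1 and Nhp2), against 2.52% of all genes, and none with median-of-ratios scaling, under which all calls went from 306 higher and 283 lower to 379 higher and 225 lower. Neither was called when only these 2 groups entered the fit. Within 2NBDG+ cells limma called 0 members, with 7 at an unadjusted p under 0.05, against 1.24% of all genes called lower (11 higher and 140 lower, or 22 and 85 with median-of-ratios scaling). The libraries did not overlap, B220- being lower, for 15 of 37 members against 17.6% of all genes. Of 37 members, 33 were below 0 for B220 averaged over 2NBDG (63.1% of all genes), as were 33 within 2NBDG+ (68.6%) and 27 within 2NBDG- (54.1%). Within 2NBDG- the libraries did not overlap, B220- being lower, for 7 members against 12.8% of all genes. For 2NBDG averaged over B220, Nhp2 was the 1 member that fell, against 4.44% of all genes, with medians of -0.13 over members and -0.04 over all genes (-0.10 and -0.01 with median-of-ratios scaling). Within B220+ and within B220- cells limma called 0 members for 2NBDG, each with 4 at an unadjusted p under 0.05, against 1.16% and 2.61% of all genes called lower. Within B220+ the 2NBDG+ libraries lay wholly below the 2NBDG- ones for 4 members, Nhp2, Nop58, Npm1 and Rrp1b, against 8.16% of all genes. Within B220- they did for 6, Fbl, Nhp2, Nolc1, Nop56, Rrp12 and Wdr43, against 14.7%, and wholly above for Ddx18, against 6.38%. Members below 0 numbered 29 for 2NBDG averaged over B220 (57% of all genes), 27 within B220+ (50%) and 32 within B220- (60.7%). For the interaction of both markers it called 0 members, with 0 at an unadjusted p under 0.05, against 0.0267% of all genes; the alternatives run also called 0. A difference between B220+ and B220- cells in how members varied with 2NBDG was therefore not shown.

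BMPC libraries also held neutrophil markers, at 5812 to 9624 TPM in sum against 13.5 to 462 in spleen, and the part of these in the marrow results was not tested. The marrow cells were set first against the spleen cells of matched phenotype. In BMPC against B220-2NBDG+, limma called 0 members, with 3 at an unadjusted p under 0.05, against 0.889% of all genes called lower and 1.03% higher. BMPC libraries lay wholly below for 6 members, Bop1, Ddx18, Ebna1bp2, Myc, Pa2g4 and Wdr74, against 19.1% of all genes, and 26 members were below 0 against 73.5%. The median was -0.13 over members and -0.18 over all genes, and median-of-ratios scaling turned both to above 0 (0.06 and 0.01), with all calls going from 116 higher and 100 lower to 194 higher and 37 lower. Against the mean of the 4 spleen groups, 9 members fell (Bop1, Ddx21, Ebna1bp2, Myc, Nolc1, Nop16, Nop58, Npm1 and Wdr43) and 16.8% of all genes did. BMPC lay below all 12 spleen libraries for 3 members, Ebna1bp2, Myc and Wdr74, against 6.73% of all genes, and 35 members were below 0 against 80.8%. Medians were -0.32 over members and -0.28 over all genes, and both were -0.01 with median-of-ratios scaling. Myc alone was called without BMPC replicate 1 or with median-of-ratios scaling, Myc and Bop1 without BMPC replicate 2, and 13 members without B220+2NBDG- replicate 3. The 16.8% does not apply to these fits. With median-of-ratios scaling 3.72% of all genes fell, and the shares without a library are not given here. Under median-of-ratios scaling the split of all calls moved from 334 higher and 1885 lower to 657 higher and 417 lower. All spleen contrasts with B220+2NBDG- share that group's libraries, and both marrow contrasts share the BMPC libraries.

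**Figure D3:**
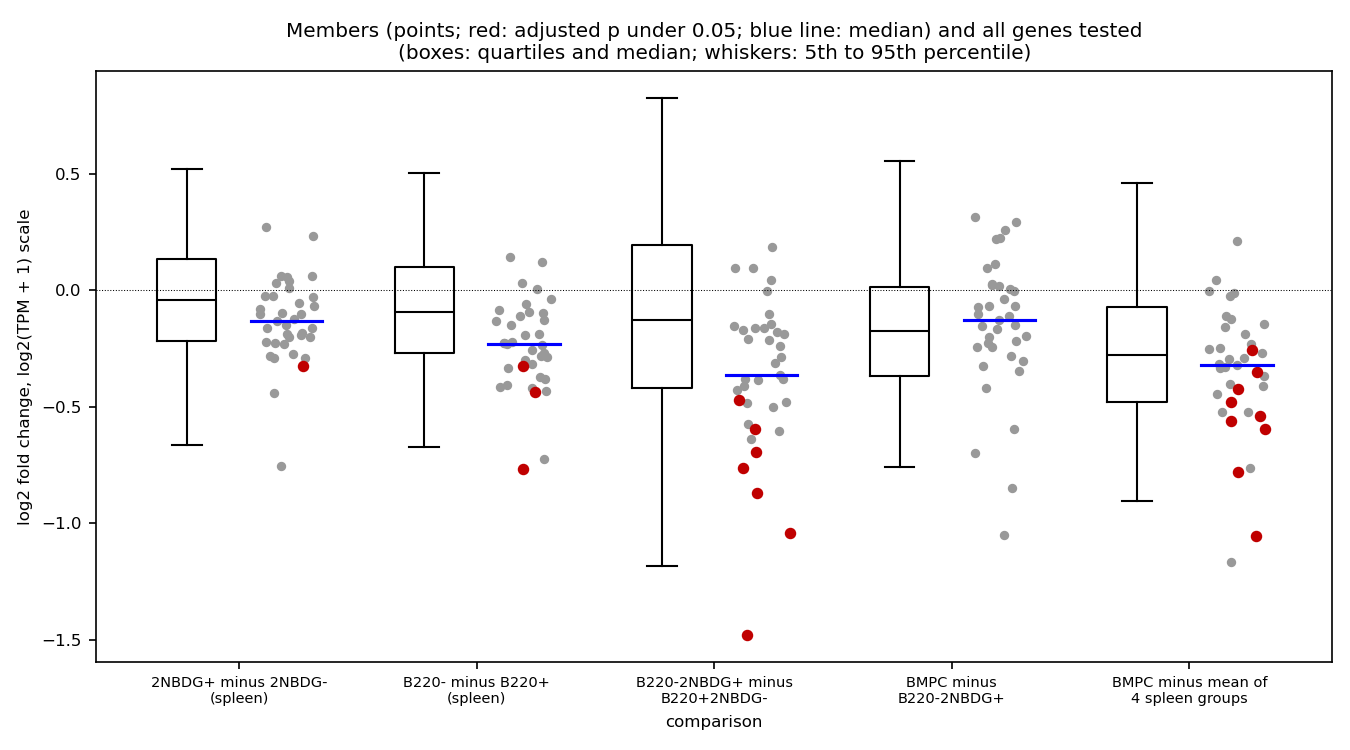
Log2 fold changes on the log2(TPM + 1) scale for the 37 members (points; red where adjusted p was under 0.05; blue line, median) beside all 11246 genes tested (boxes, quartiles and median; whiskers, 5th to 95th percentile) in 5 comparisons. Members sit below all genes in B220-2NBDG+ against B220+2NBDG- (medians -0.36 and -0.13) and near them in both marrow comparisons.

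Of 111 further ribosome biogenesis genes, 109 were tested: 13 fell and none rose between the outer spleen groups, with a median of -0.25, where 10.7% of all genes fell. For B220, 4 fell against 5.85% of all genes, and in BMPC against the 4 spleen groups 24 fell against 16.8%. None was called for 2NBDG or for BMPC against B220-2NBDG+. Of the 13 called between the outer spleen groups, 7 were among the 45 tested large subunit factors, led by Rpf2, which helps to bring in the 5S ribonucleoprotein. Rpf2 went from 46.3, 59.0 and 53.4 TPM in B220+2NBDG- to 36.3, 26.3 and 23.7 in B220-2NBDG+, a fall of 0.87 ± 0.20 (SE, log2, adjusted p = 0.0115); Brix1 fell by 0.68 ± 0.16 and Ftsj3 by 0.63 ± 0.17 (adjusted p = 0.0121 and 0.0262). For B220, Rpf2, Ftsj3 and Nifk fell by 0.60 ± 0.14, 0.46 ± 0.12 and 0.38 ± 0.11. Of 43 small subunit genes, 4 fell between the outer spleen groups, led by Emg1 (0.67 ± 0.17), Utp18 (0.61 ± 0.18) and Ngdn (0.59 ± 0.15). Of 13 other RNA polymerase I genes, Polr1e, a polymerase subunit, fell by 0.77 ± 0.20 and Taf1d, a subunit of the promoter selectivity factor, by 0.53 ± 0.13, with Taf1d also lower for B220 (0.32 ± 0.09). None of the 8 tested genes of small nucleolar ribonucleoproteins outside the members was called in the 4 designed comparisons named here. In BMPC against the 4 spleen groups 1 of them was called lower, Ruvbl2, named after its values were seen.

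Of 11 other genes of the Myc network tested, 1 was called within spleen and 1 in BMPC against the 4 spleen groups, Mlxip, which fell there and is named after its values were seen. Mxd3, a Max partner that opposes Myc, fell between the outer spleen groups by 1.56 ± 0.36 (SE, log2, adjusted p = 0.0102), from 1.36, 1.06 and 5.73 TPM to 0.137, 0.130 and 0 TPM. Mycn, a paralogue of Myc, was at or below 0.090 TPM in every library. Of 25 Myc targets outside ribosome biogenesis, 6 fell and 2 rose between the outer spleen groups, where 10.7% of all genes fell and 4.91% rose. Ran, the GTPase of nuclear transport, fell by 0.97 ± 0.16 (adjusted p = 0.00138) from 113, 101 and 114 to 55.6, 57.0 and 54.1 TPM, and C1qbp, a mitochondrial matrix protein, by 0.88 ± 0.23 (adjusted p = 0.0221). Eif4ebp1, a brake on cap-dependent translation, rose by 1.04 ± 0.28 (adjusted p = 0.0248). Ldha, lactate dehydrogenase, fell by 0.76 ± 0.13 (adjusted p = 0.00146). For B220, C1qbp, Ran and Ldha fell by 0.68 ± 0.16, 0.52 ± 0.11 and 0.42 ± 0.09 and Mthfd2, a mitochondrial folate enzyme named after its values were seen, rose by 0.39 ± 0.11. For 2NBDG, Ran and Ldha fell by 0.44 ± 0.11 and 0.35 ± 0.09. None of the 25 was called in BMPC against B220-2NBDG+, while against the 4 spleen groups 8 fell and none rose, with 16.8% of all genes lower.

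Several other lists varied as well, not all of them in the direction of the members. Summed over 21 cell cycle genes, levels were 1397 to 1899 TPM in B220+2NBDG-, 473 to 801 in B220-2NBDG-, 575 to 928 in B220+2NBDG+, 239 to 284 in B220-2NBDG+ and 345 to 375 in BMPC; 19 of 21 fell between the outer spleen groups. The 12 B cell markers, Pax5 among them, summed to 1370 to 2799, 1126 to 1529, 1398 to 1986, 1094 to 1323 and 854 to 1186 TPM in the same order, and 8 of 12 fell. The 16 T cell markers summed to 157 to 878, 137 to 285, 106 to 159, 73.3 to 111 and 79.4 to 90.6 TPM, and 6 of the 13 tested fell. Neutrophil markers (12 genes) summed to 5812 to 9624 TPM in BMPC and 13.5 to 462 in spleen, although the sort excluded Ly6g. Within spleen these sums were 346 to 462 TPM in replicate 3 of each group and 13.5 to 117 in the other replicates. Erythroid markers (10 genes) summed to 2109 to 6786 TPM in replicate 3 of the 4 spleen groups, 91.0 to 436 in their other replicates and 327 to 1072 in BMPC. Monocyte and macrophage markers (12 genes) summed to 151 to 531, 194 to 805, 474 to 2231, 263 to 1114 and 498 to 887 TPM. Plasma cell markers (9 genes) summed to between 32104 and 46765 TPM in B220+2NBDG-, between 84190 and 93569 in B220-2NBDG+ and between 91777 and 132091 in BMPC. Gene by gene, 3 of 9 rose between the outer spleen groups. In BMPC against B220-2NBDG+, 0 were called and 8 of 9 were below 0 (median -0.28), against 73.5% of all genes. Against the 4 spleen groups, Jchain and Tnfrsf17 rose and Fkbp11 and Mzb1 fell. There 6 of 9 were below 0 (median -0.13), against 80.8% of all genes. In none of these lists was a gene at 0 in all 3 libraries of a group. The part of the other cell types in the differences of the members was not tested.

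**Figure D4:**
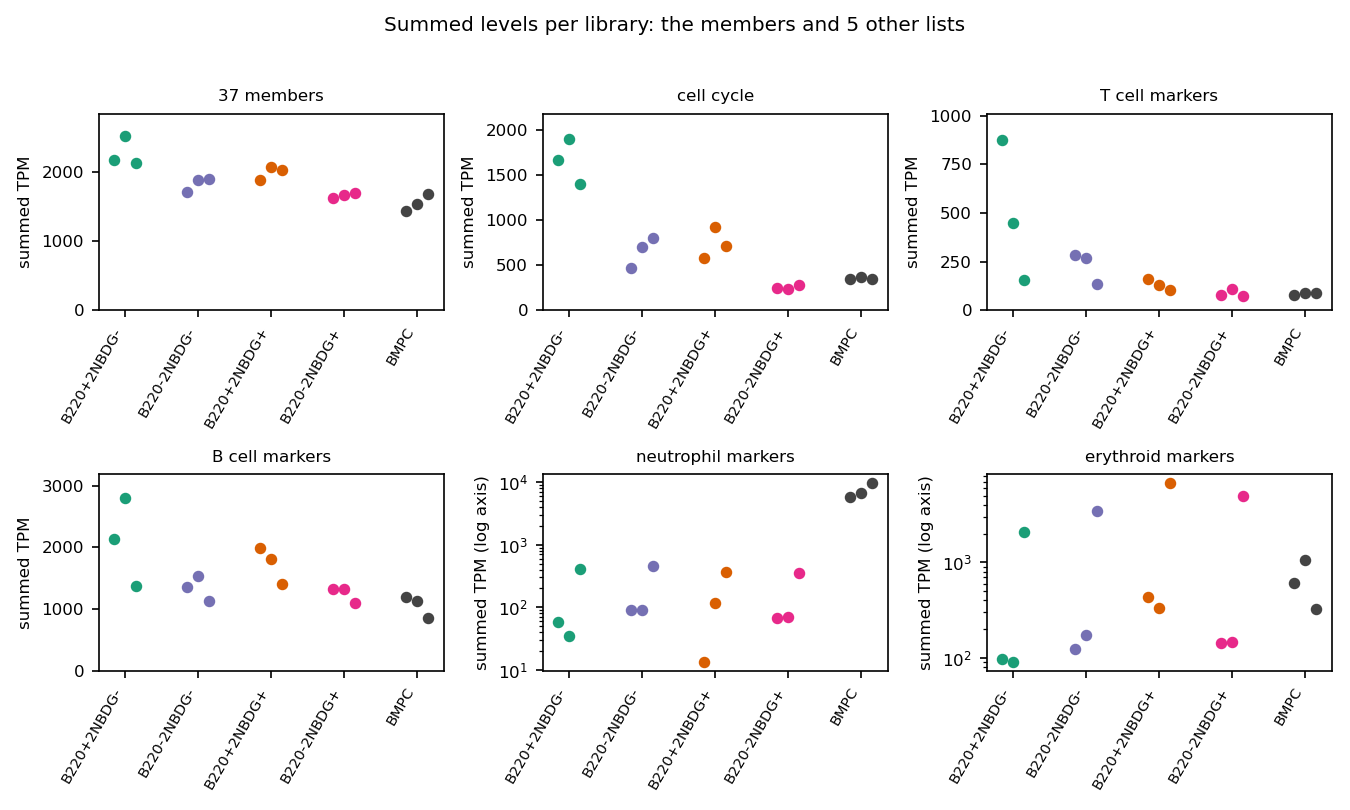
Summed TPM per library (points) in the 5 groups for the 37 members, the cell cycle list and the T cell, B cell, neutrophil and erythroid marker lists; the neutrophil and erythroid panels have log axes and the others start at 0. The members' sum (1436 to 2535 TPM) and the cell cycle sum (239 to 1899 TPM) both peak in B220+2NBDG-, neutrophil markers in BMPC, and erythroid markers in replicate 3 of each spleen group.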

How the data were processed

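RNA from about 30000 sorted cells per library was made into libraries with Clontech SMART-seq and Nextera, per the labels' protocols. The authors quantified transcripts with Salmon 0.9.1 on GRCm38.p6, per the submitters' processing notes, and deposited TPM for 63553 transcripts in 15 libraries, with each transcript's length and effective length. From these, transcripts were summed to 22339 genes, 262 immunoglobulin genes were removed and the other TPM scaled to a total of 1000000 in each library. TPM times effective length, scaled to whole-number steps, gave estimated reads; 72.3% to 74.9% of low values came within 0.05 of a whole number, so these depths are approximate.

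Genes with at least 1 TPM in 3 libraries were tested on log2(TPM + 1) with limma 3.58.1 (R 4.3.3): one mean per group over all 15 libraries, moderated variances with a trend, Benjamini-Hochberg adjustment over 11246 genes, threshold 0.05. Fold changes on this scale understate changes of low genes, and 3 libraries per group limit precision. The procedure was tested on simulated data with independent noise and seeded changes larger than most of those called in members. That run does not show how smaller changes, or deviations shared between same-numbered libraries, are handled. Tables were handled with pandas 2.3.3 and numpy 2.4.6; transcript types came from GENCODE M21 and promoters from RefSeq. Among the 4 spleen groups, deviations of same-numbered libraries from their group means correlated above 0.1 in 16 of 18 pairs (r from 0.089 to 0.415), and in every pair for 4 of 6 pairs of groups, those that differ in B220 alone included; for these the fit with the replicate number as a block is given where it moves a count. The pairing comes from the data alone, and no label states it. In the spleen groups, erythroid and neutrophil marker sums were also higher in replicate 3 of each group than in its other replicates. The main p-values come from the fit without the block. Alternatives changed the pseudocount, filter, scaling, samples, weights and block. Estimated reads in place of TPM, transcripts of at least 500 nt and the contrast of BMPC with all spleen groups were added after seeing the data. The members and lists were chosen with earlier results of these data known. All members could be named; from other lists, up to 3 called genes with the largest fold change per comparison. The labels state biological replicates without their animals, so p-values measure the spread between these samples.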

Additional observations from a re-analysis of the deposited data

How the results depend on the processing

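Of 969 alternative values for 38 results on single genes, 839 kept direction and side of the threshold, 120 lost and 9 gained a call, and 1 reversed: with median-of-ratios scaling, Npm1 in BMPC against the 4 spleen groups went to 0.0732 (log2, adjusted p = 0.735). Median-of-ratios scaling left members called as follows: 3 between the outer spleen groups, 1 for B220, 0 for B220 within 2NBDG-, 0 for 2NBDG, 1 in BMPC against the 4 spleen groups and 1 among the 5 groups. On TPM as deposited, where 28 members passed the filter, counts were 27 between the outer spleen groups, 26 for B220, 24 within 2NBDG-, 9 within 2NBDG+, 27 for 2NBDG, 27 within B220+, 18 within B220-, 21 in BMPC against the 4 spleen groups and 27 among the 5 groups. On that scale immunoglobulin transcripts took 91.1% to 96.6% of each library, and 85.4% of all genes were called lower between the outer spleen groups. The share called lower was 71.7% for B220, 64.7% within 2NBDG- and 14.1% within 2NBDG+. For 2NBDG it was 82.2%, with 74.7% within B220+ and 50% within B220-. In BMPC against the 4 spleen groups it was 59.0%. limma's array weights, whose fit warned that it had not converged, gave 18 between the outer spleen groups (38.7% of all genes called in either direction), 12 for B220 (22.1%), 12 within 2NBDG- (25.5%), 2 within 2NBDG+ (2.77%), 2 for 2NBDG (18.3%), 5 within B220+ (18.4%; 2 of the 5 higher, the 1 fit of 269 with a member higher), 2 in BMPC against B220-2NBDG+ (13.1%; Myc at an adjusted p of 0.0178), 19 against the 4 spleen groups (43.5%) and 25 among the 5 groups (60.2%). With only the groups compared, 4 were called between the outer spleen groups and 0 for B220 within 2NBDG-; this was not run for the contrast with all spleen groups or the 5-group test. Estimated reads gave 12 between the outer spleen groups and 2 for 2NBDG, and transcripts of at least 500 nt gave 5 for B220. Leaving out 1 library at a time gave 4 to 12 between the outer spleen groups, 3 to 7 for B220, 0 to 3 for B220 within 2NBDG-, 0 to 2 for 2NBDG, 0 to 1 in BMPC against B220-2NBDG+, 1 to 13 against the 4 spleen groups and 5 to 14 among the 5 groups. For the fits on compared groups, estimated reads, long transcripts or fewer libraries, shares over all genes are given only where printed above. The other counts from these fits have no background beside them and are not read as results about the members. With the replicate block, 5 members were called for B220, 2 for 2NBDG (Nhp2 and Nop58; 8.78% of all genes called) and 1, Myc, in BMPC against B220-2NBDG+ (adjusted p = 0.0363; 2.98%); the counts of members called in the other comparisons stayed within 1.5 times. Same-numbered samples of BMPC and spleen did not deviate together (0 of 12 pairs above 0.1, r from -0.191 to 0.059), so there the block rests on a number alone; 42 of 60 comparisons of a sample with another group were best at its own number. Gar1 and Rrs1, at 0 to 18 and 3 to 60 estimated reads, are limited by depth.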
